A study of Mus musculus with 6 samples.

Results

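The genes described here encode subunits of the oxidative phosphorylation machinery, measured in multipotent progenitor cells of mouse bone marrow. They were chosen by symbol: Nduf subunit genes of complex I, the 4 Sdh genes of complex II, the Uqcr genes of complex III, the nuclear Cox4 to Cox8 genes of complex IV and the Atp5 genes of complex V. This gave 81 of the 19938 genes that have a feature of their own on the array, carried by 105 features. Where a gene had several features, the one with the highest mean over the 6 arrays stands for it. The Ndufa4 gene and its relative Ndufa4l2 were counted in complex IV, and 8 genes were set apart as tissue, testis or hypoxia isoforms, which leaves 73 broadly expressed subunits.

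Total RNA was profiled on 6 whole-transcript Affymetrix arrays, 3 of wild-type C57BL/6 mice and 3 of Lxn-/- mice on the same strain, whose latexin gene (Lxn, a carboxypeptidase inhibitor) lacks exons 2 to 4. The mice of both groups were 8 to 12 weeks old and labelled female, and no treatment is labelled. The cells were sorted as lineage-negative, Sca1-positive, c-Kit-positive, CD34-positive cells that also carried the receptor written as Flt2, while the cell number in the same text is given for LT-HSCs. Each sample was a pool of 10 to 20 mice with close to 100000 cells, so the spread between arrays is a spread between pools. Of the markers of the sort, Cd34 and Flt3 had wild-type means of 13.41 ± 0.05 and 12.71 ± 0.04 (log2 value, SD, n = 3), and Kit was 12.15, 12.19 and 12.05 in wild type against 11.48, 12.15 and 12.10 in the arrays labelled Lxn-/-, lowest in array 1.

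The labels of the 3 Lxn-/- arrays are not settled by the data. Lxn itself was 8.56, 8.70 and 8.58 in wild type against 8.03, 8.53 and 8.61 in the arrays labelled Lxn-/-, in the order of the replicate numbers, which is the order used for every set of 3 values below. The exons that its probes read are not known here, so Lxn checks no label. Xist, the RNA of the silenced X chromosome, was 13.20, 13.13 and 13.23 in wild type against 6.86, 13.17 and 5.85, and the Y-linked gene Eif2s3y was 3.88, 3.97 and 3.68 in wild type against 8.57, 3.83 and 9.36. Arrays 1 and 3 labelled Lxn-/- therefore carry Y-linked signal and little Xist, against their label of female, and array 2 does not. Heat shock and immediate early genes were high in the same arrays: the median of 18 such genes relative to the wild-type mean was 0.468 in array 1, -0.172 in array 2 and 0.393 in array 3. The part of these differences in the results below was not tested.

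In oxidative phosphorylation, complexes I and II take electrons from NADH and from succinate and pass them to ubiquinone, complex III hands them on to cytochrome c, and complex IV gives them to oxygen. Complexes I, III and IV pump protons across the inner mitochondrial membrane, and complex V, the ATP synthase, makes ATP as protons flow back. Most subunits are encoded in the nucleus, and a few core ones in mitochondrial DNA. Blood stem cells are known for a largely glycolytic metabolism, and their entry into cycle and differentiation goes along with more mitochondrial respiration.

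The subunit genes had slightly higher values in the arrays labelled Lxn-/-, and most of that shift lay in 1 array. Over the 81 genes the median log2 change (labelled Lxn-/- minus wild type) was 0.128, with a range from -0.129 to 0.480. The median over all 23410 tested features was -0.038, and over the 11705 features above the median level, where 76 of the 81 genes lie, it was 0.067. The mean was higher for 67 of the 81 genes (82.7%), against 42.2% of all tested features and 69.3% of the features above the median level.

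No subunit gene passed the test. In limma, 0 of the 81 genes had an adjusted p under 0.05 (background 0% of all features), and the smallest adjusted p among them, 0.340, is also the smallest of all features. At an unadjusted p under 0.05, 5 of the 81 genes (6.17%) were higher, against 5.06% of all features and 8.37% of those above the median level, and 0 were lower, against 9.23% and 3.02%. These 5 are Ndufb6, Ndufb5, Ndufa5, Sdhd and the muscle isoform gene Cox6a2. All 3 arrays labelled Lxn-/- lay above all 3 wild-type arrays for 11 genes (13.6%), against 8.54% of all features and 15.8% of those above the median level, and for 0 genes the other way, against 13% and 3.6%. In the higher direction the share of subunits at an unadjusted p under 0.05 was thus near that of other features. The median change was 0.052 without array 1 labelled Lxn-/-, 0.043 with array 2 as the only labelled array (called array 2 alone below) and 0.054 when the arrays were quantile-normalized again, where 56 of 81 genes were higher. In bulk RNA such as this, fewer cells of a type and less RNA per cell cannot be told apart.

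Array 1 labelled Lxn-/- set most of the pattern. Of the 73 broadly expressed subunit genes, 59 had their highest value of all 6 arrays there. The median over these genes relative to the wild-type mean was 0.286 in array 1, 0.055 in array 2 and 0.074 in array 3. The features above the median level had medians of 0.026, 0.083 and 0.083 in the same arrays. The median of the subunits was thus above that of the bright features in array 1 and below it in arrays 2 and 3. Without array 1 the median changes of complexes I to V were 0.083, 0.075, 0.033, 0.009 and 0.075. Wild-type array 3 was the next highest, at 0.108, while wild-type arrays 1 and 2 were at -0.044 and -0.050, and these 2 arrays held the lowest value for 24 and 34 of the 73 genes. Y-linked and heat shock signal was found in arrays 1 and 3 labelled Lxn-/-, whose subunit medians were 0.286 and 0.074. The part of that signal in the medians was not tested. Limma's array weights were lowest for array 1, at 0.356, and ran from 0.640 to 1.58 for the other 5.

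**Figure D1:**
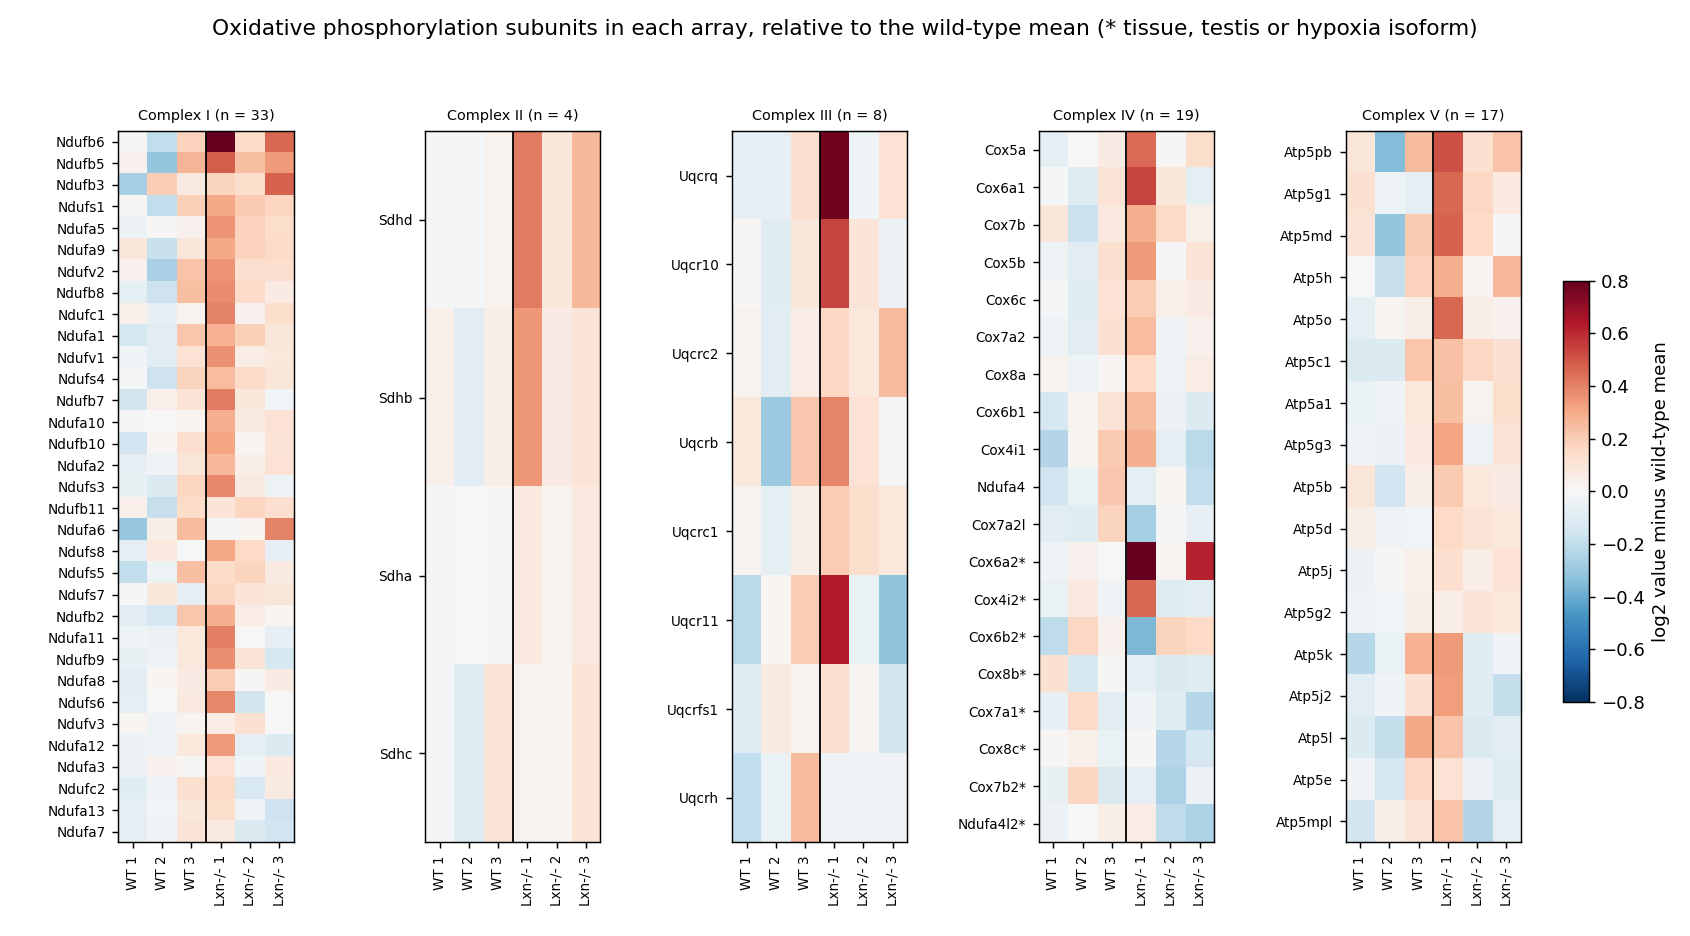
Each row is 1 of the 81 subunit genes, grouped by complex, and each column is 1 array. Colour gives the log2 value minus the mean of the 3 wild-type arrays, and the column of array 1 labelled Lxn-/- is the reddest, with the highest value for 59 of the 73 broadly expressed genes.

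Some promoters of these genes hold motifs of known regulators. NRF1 and the ETS factor GABPA (also called NRF2) are textbook activators of respiratory chain genes, and YY1 and CREB bind many of them too. RefSeq promoter windows (GRCm38.p6, 250 bases before to 50 bases after the annotated start) were found for 66 of the 81 genes, 62 of them broadly expressed subunits with 67 windows. The NRF1 letters (the 10 shown in capitals near the end of the Ndufa11 stretch below) occurred on either strand in 7.46% of these windows and in 0.971% of all 32851 windows. With any base at the fifth position, which includes the first motif, the shares were 25.4% and 4.6%. The ETS letters CCGGAAG occurred in 25.4% against 8.86%, the YY1 letters AAGATGGC in 14.9% against 2.75% and the CRE letters TGACGTCA in 5.97% against 1.79%. The SP1 letters GGGCGG were about as common in both, at 38.8% and 35.7%. A YY1 match was held by 7 of the 30 broadly expressed complex I genes with a window and by 3 of the 15 of complex V. NRF1 (1 base free) matches fell on 6 of these 30 and 6 of these 15 genes. None of the 4 tissue isoform genes with a window (Cox6b2, Cox7a1, Cox7b2 and Cox8b) held an NRF1, ETS, YY1 or CRE match. Each of these motifs occurs in at most 8.86% of all windows, so 0 matches in 4 genes cannot be told from the background. These are matches of letters in a short window and are not evidence of binding.

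The window of the muscle isoform gene Cox7a1 holds none of the NRF1, ETS, YY1 or CRE letters. The stretches below, all upstream of the start, show 1 broadly expressed member of each complex and Cox7a1. They lie at chr17:56717592-56717721 (plus strand) for Ndufa11, chr9:50603870-50603949 (minus strand) for Sdhd, chr10:80406852-80406911 (minus strand) for Uqcr11, chr5:115348959-115349128 (minus strand) for Cox6a1, chr11:115419940-115420069 (minus strand) for Atp5h and chr7:30184001-30184170 (plus strand) for Cox7a1. Capitals mark the CRE and exact NRF1 letters in Ndufa11, the ETS letters in Uqcr11, and the NRF1 letters with 1 base free and the ETS letters in Sdhd, Cox6a1 and Atp5h.
Ndufa11: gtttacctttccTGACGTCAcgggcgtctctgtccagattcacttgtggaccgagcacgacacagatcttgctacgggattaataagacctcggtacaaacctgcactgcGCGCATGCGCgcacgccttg
Sdhd: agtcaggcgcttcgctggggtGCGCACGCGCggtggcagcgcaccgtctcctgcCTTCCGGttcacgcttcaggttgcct
Uqcr11: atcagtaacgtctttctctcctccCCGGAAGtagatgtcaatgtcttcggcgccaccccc
Cox6a1: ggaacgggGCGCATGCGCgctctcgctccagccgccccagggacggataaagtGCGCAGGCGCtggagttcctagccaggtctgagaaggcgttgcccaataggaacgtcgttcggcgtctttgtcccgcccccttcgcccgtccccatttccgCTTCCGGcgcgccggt
Atp5h: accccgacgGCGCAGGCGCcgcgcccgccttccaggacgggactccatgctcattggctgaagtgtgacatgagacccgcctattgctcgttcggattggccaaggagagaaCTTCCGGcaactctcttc
Cox7a1: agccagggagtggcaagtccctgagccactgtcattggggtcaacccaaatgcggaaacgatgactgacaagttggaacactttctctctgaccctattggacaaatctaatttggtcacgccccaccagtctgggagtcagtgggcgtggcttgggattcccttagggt

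**Figure D2:**
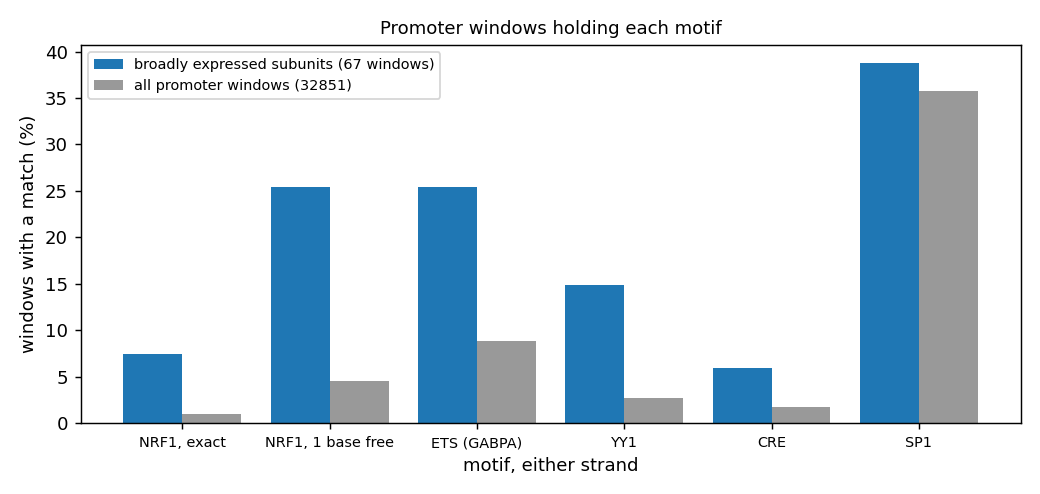
Bars give the percent of promoter windows that hold each motif on either strand, for the 67 windows of broadly expressed subunits (blue) and all 32851 windows (grey). The 2 NRF1 forms, ETS, YY1 and CRE are more frequent in the subunit windows, and SP1 is at 38.8% and 35.7%.

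Complex I was represented by 33 genes, with a median change of 0.138 and 31 of them higher. Ndufv1, the flavin subunit that takes electrons from NADH, was 10.57, 10.501 and 10.71 in wild type against 10.96, 10.65 and 10.67 in the arrays labelled Lxn-/-. The iron-sulphur subunits of the electron path had changes of like size: Ndufv2 was 11.40, 11.11 and 11.60 in wild type against 11.73, 11.50 and 11.50, and Ndufs1 was 9.75, 9.54 and 9.93 in wild type against 10.04, 9.95 and 9.92. Their changes were 0.17 (SE 0.11), 0.21 (SE 0.13) and 0.23 (SE 0.11), with adjusted p from 0.366 to 0.448. The groups overlapped for each of these genes, through wild-type array 3. Next to the quinone site, Ndufs7 was 12.37, 12.47 and 12.30 in wild type against 12.55, 12.48 and 12.47, a change of 0.12 (SE 0.09) with the groups just apart. Ndufs8, a further iron-sulphur subunit, was 11.24, 11.39 and 11.31 in wild type against 11.62, 11.47 and 11.25, and Ndufs3, of the same arm, was 10.47, 10.42 and 10.70 in wild type against 10.91, 10.60 and 10.49. For all 6 of these core genes array 1 labelled Lxn-/- held the highest value of the 6 arrays. Their median relative to wild type was 0.336 there, against 0.119 and 0.088 in arrays 2 and 3.

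The accessory subunits of the Ndufb series, which sit in the distal membrane arm, held the largest changes of complex I. All 9 measured were higher, with a median of 0.161. Ndufb6 was 10.74, 10.53 and 10.91 in wild type against 11.52, 10.87 and 11.19, which differs by 0.47 (SE 0.17), at an adjusted p of 0.340, and the change was 0.302 without array 1 and 0.144 with array 2 alone. Arrays 1 and 3 lay above the wild-type values and array 2 among them. Ndufb5 was 10.15, 9.80 and 10.39 in wild type against 10.60, 10.36 and 10.46, a change of 0.36 (SE 0.15). All 3 labelled arrays lay above the wild-type mean, and wild-type array 3 was higher than array 2. Ndufb3 was 7.46, 7.92 and 7.80 in wild type against 7.91, 7.87 and 8.20, where array 3 was the highest, and its change was 0.27 (SE 0.14).

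Of the 12 Ndufa genes counted in complex I, 10 were higher, at a median of 0.125. Ndufa5, an accessory subunit of the matrix arm, was 7.92, 7.98 and 8.01 in wild type against 8.33, 8.16 and 8.11, which differs by 0.23 (SE 0.09), at an adjusted p of 0.341, and the groups did not overlap. Ndufa9, next to the quinone channel, was 10.56, 10.29 and 10.57 in wild type against 10.78, 10.66 and 10.63, and Ndufa10 was 11.15, 11.17 and 11.19 in wild type against 11.46, 11.25 and 11.29. Both were also higher in all 3 labelled arrays than in any wild-type array, with changes of 0.21 and 0.16. Ndufa7 and Ndufa13 were the 2 genes of complex I with lower means, at -0.07 and -0.018. Ndufa11, whose promoter stretch is printed above, was 10.18, 10.17 and 10.30 in wild type against 10.62, 10.22 and 10.15, where array 1 alone exceeded the wild-type values, and its change was 0.11 (SE 0.13).

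Ndufa1, an X-linked subunit gene of the membrane arm, was 7.80, 7.86 and 8.17 in wild type against 8.22, 8.13 and 8.04, Ndufb11 was 11.20, 10.97 and 11.31 in wild type against 11.26, 11.33 and 11.30 and the complex IV gene Cox7b was 12.67, 12.41 and 12.66 in wild type against 12.87, 12.73 and 12.62. These 3 X-linked members had changes of 0.19, 0.14 and 0.16. Their medians were 0.279, 0.172 and 0.098 in arrays 1, 2 and 3, over only 3 genes. The second feature of Ndufb11 was highest in array 3, at 10.95, and that of Cox7b in array 1, at 11.39. Arrays 1 and 3 had little Xist, and its part in these values was not tested.

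All 4 genes of complex II, the succinate dehydrogenase shared with the citric acid cycle, had higher means, with a median of 0.117. Sdha, the flavin subunit that oxidises succinate, was 11.79, 11.81 and 11.82 in wild type against 11.89, 11.84 and 11.89, the narrowest wild-type spread of the 4. Sdhb, the iron-sulphur subunit, was 10.25, 10.13 and 10.26 in wild type against 10.56, 10.28 and 10.32. Sdhd, a membrane anchor of the complex, was 10.40, 10.40 and 10.45 in wild type against 10.83, 10.51 and 10.67. For these 3 of the 4 genes every labelled array lay above every wild-type array, against 8.54% of all features and 15.8% of those above the median level. Their changes were 0.06 (SE 0.08), 0.17 (SE 0.10) and 0.26 (SE 0.10), with adjusted p of 0.690, 0.419 and 0.340 in limma. Sdhc, the other anchor, was 10.48, 10.40 and 10.60 in wild type against 10.52, 10.51 and 10.61, and its groups overlapped. After a second quantile normalization the median of the 4 genes was 0.029 and the change of Sdha was -0.036, so the separation of Sdha depended on the scaling.

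The 8 genes of complex III had a median change of 0.153, and 7 of them were higher. The median was 0.033 without array 1 labelled Lxn-/-, 0.040 with array weights and 0.052 with array 2 alone. The core subunit genes Uqcrc1 and Uqcrc2 had separate groups: Uqcrc1 was 11.34, 11.24 and 11.36 in wild type against 11.52, 11.46 and 11.40, and Uqcrc2 was 11.90, 11.79 and 11.93 in wild type against 12.04, 11.96 and 12.13. Their changes were 0.14 (SE 0.09) and 0.17 (SE 0.09), with adjusted p of 0.422 and 0.391. Uqcrfs1 encodes the Rieske iron-sulphur protein, whose loss is known to block the differentiation of fetal blood stem cells. It was 9.04, 9.22 and 9.18 in wild type against 9.28, 9.17 and 8.999, with means of 9.15 in both groups.

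The small subunits of complex III varied widely between the labelled arrays. Uqcrq was 9.78, 9.78 and 9.98 in wild type against 10.61, 9.81 and 9.96, Uqcr10 was 9.21, 9.11 and 9.29 in wild type against 9.75, 9.31 and 9.16 and Uqcr11 was 9.83, 10.06 and 10.25 in wild type against 10.68, 10.00 and 9.73. Array 1 was the highest of the 6 for each of them. Arrays 2 and 3 lay within the wild-type range, except that array 2 was just above it for Uqcr10 and array 3 below it for Uqcr11. The changes of 0.28 (SE 0.19), 0.20 (SE 0.15) and 0.09 (SE 0.22) were within the spread between arrays, and those of Uqcrq and Uqcr11 were -0.036 and -0.053 with array 2 alone. Uqcrh, the hinge protein of cytochrome c1, was 11.00, 11.15 and 11.45 in wild type against 11.17, 11.17 and 11.17, with nearly the same value in the 3 labelled arrays. Cyc1, which encodes cytochrome c1 and is not among the 81 genes, was 10.49, 10.23 and 10.43 in wild type against 10.99, 10.55 and 10.57, which differs by 0.32 (SE 0.13), at an adjusted p of 0.344.

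Complex IV, cytochrome c oxidase, had the smallest median change of the 5 complexes among broadly expressed subunits, 0.083 over 11 genes, 8 of them higher. The median was -0.007 with array 2 alone and -0.001 after a second quantile normalization, so it has no settled direction. Cox4i1, the common isoform of subunit 4, was 10.48, 10.74 and 10.93 in wild type against 11.00, 10.64 and 10.499, with means of 10.71 in both groups. Cox5a, a matrix-side subunit, was 10.26, 10.33 and 10.40 in wild type against 10.79, 10.34 and 10.47, and Cox5b, which binds zinc, was 11.37, 11.32 and 11.54 in wild type against 11.75, 11.40 and 11.52. Their changes of 0.20 (SE 0.12) and 0.15 (SE 0.11) came with array 2 inside the wild-type range. Cox7a2l was 9.20, 9.19 and 9.47 in wild type against 9.02, 9.27 and 9.22, and array 1 was its lowest array, unlike most subunits. Ndufa4, first assigned to complex I, was 10.53, 10.63 and 10.90 in wild type against 10.61, 10.70 and 10.49, also with no higher value in array 1. The shift of array 1 thus did not extend to every gene of complex IV.

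The tissue isoforms of complex IV fell into a dim and a brighter set. As a guide to the dim end, 1035 olfactory receptor features had a central 95% range of 3.85 to 7.46. Cox7a1 and Cox8b of heart and muscle, Cox7b2 and Cox8c of testis and the hypoxia gene Ndufa4l2 had mean values inside that range and cannot be told from background here. Levels of different features are not ranked against each other, since probes differ in affinity. Values of Cox7a1 were 6.76, 6.98 and 6.74 in wild type against 6.80, 6.73 and 6.60, those of Cox8b were 6.88, 6.63 and 6.77 against 6.69, 6.64 and 6.66, and those of Ndufa4l2 were 6.61, 6.66 and 6.70 against 6.71, 6.45 and 6.41. Their common counterparts Cox7a2 and Cox8a were 10.06, 10.01 and 10.22 in wild type against 10.35, 10.06 and 10.13 and 11.77, 11.70 and 11.76 in wild type against 11.90, 11.70 and 11.80. Cox7b2 was 5.25, 5.48 and 5.20 in wild type against 5.25, 5.06 and 5.27, and Cox8c was 7.41, 7.44 and 7.34 in wild type against 7.40, 7.17 and 7.26. None of these 5 isoforms had an unadjusted p under 0.05, and each of their changes was between -0.13 and -0.10.

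Cox4i2, Cox6a2 and Cox6b2 lay above that range. Cox4i2, the lung and hypoxia isoform of subunit 4, was 7.75, 7.89 and 7.78 in wild type against 8.27, 7.70 and 7.72, higher in array 1 alone. Cox6b2, the testis isoform of subunit 6b, was 8.52, 8.89 and 8.76 in wild type against 8.36, 8.90 and 8.88, lowest in array 1, while its common counterpart Cox6b1 was 11.19, 11.34 and 11.43 in wild type against 11.57, 11.27 and 11.21. Their changes were 0.09 (SE 0.15) and -0.0069 (SE 0.16), and the sign of both turned under several alternatives.

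Cox6a2, the heart and muscle isoform of subunit 6a, had values of 8.72, 8.78 and 8.75 in wild type against 9.55, 8.77 and 9.37, which divided the labelled arrays. Arrays 1 and 3 were higher than every other array, and array 2 was level with wild type. Its change was 0.48 (SE 0.18), and limma gave an adjusted p of 0.340. Without array 2 it was 0.709 with an adjusted p of 0.0158, where 145 of all 23410 features passed and no other of the 81 genes did, and with array 2 alone it was 0.022. Its common counterpart Cox6a1 was 10.83, 10.73 and 10.94 in wild type against 11.38, 10.93 and 10.76, with array 3 inside the wild-type range, so both isoforms were high in array 1 and only Cox6a2 in array 3. Arrays 1 and 3 are those with Y-linked and heat shock signal: Hspa1a, the inducible HSP70, was 8.41, 8.19 and 8.20 in wild type against 10.32, 8.80 and 11.33. Of 8 heart and skeletal muscle marker genes (Acta1, Actc1, Ckm, Mb, Myh4, Myh6, Myh7 and Tnnt2), 5 lay within or below the olfactory receptor range, 0 had an unadjusted p under 0.05, and their summed linear value was 1329 to 1372 in wild type and 1183 to 1417 in the labelled arrays. Myh6 was 6.64, 6.69 and 6.71 in wild type against 6.76, 6.65 and 6.49 and Ckm was 7.65, 7.64 and 7.67 in wild type against 7.74, 7.38 and 7.49. For both, array 1 was above the wild-type range and array 3 below it. Of the 8 marker genes, array 1 held the highest value of the 6 arrays for 5, and array 3 the lowest for 5. The part of muscle RNA in the Cox6a2 values was not tested.

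**Figure D3:**
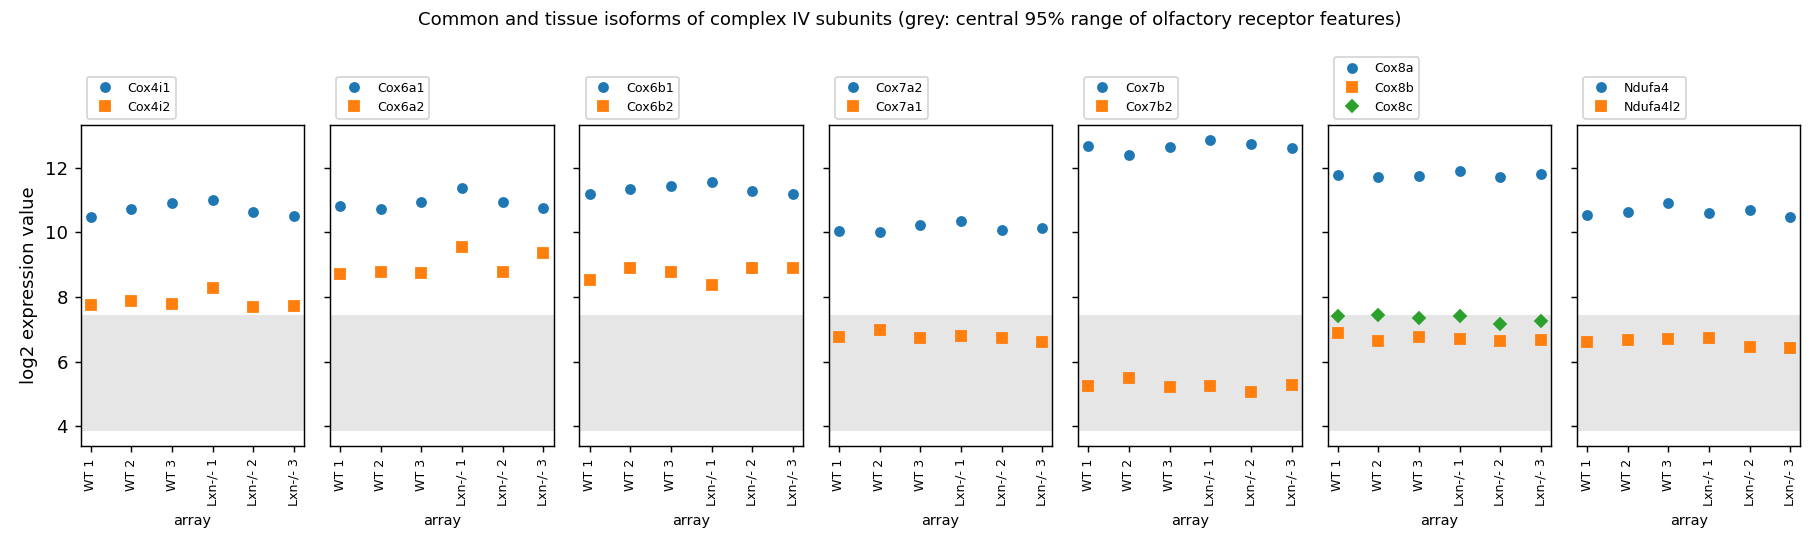
Log2 values of common (circles) and tissue, testis or hypoxia isoforms (squares, diamonds) in each of the 6 arrays, with the grey band at 3.85 to 7.46, the central 95% range of olfactory receptor features. Cox6a2 is higher in arrays 1 and 3 labelled Lxn-/-, and Cox7a1, Cox7b2, Cox8b, Cox8c and Ndufa4l2 lie in or at the edge of the band.

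Complex V was represented by 17 genes with a median change of 0.120, 15 of them higher. In the F1 head, where ATP is made, the catalytic beta subunit gene Atp5b was 13.23, 12.98 and 13.19 in wild type against 13.35, 13.22 and 13.20, and the alpha subunit gene Atp5a1 was 12.14, 12.16 and 12.28 in wild type against 12.43, 12.22 and 12.34. The central stalk gene Atp5c1 was 11.61, 11.62 and 11.95 in wild type against 11.96, 11.89 and 11.85. The changes were 0.12 (SE 0.10), 0.14 (SE 0.09) and 0.17 (SE 0.11), each smaller than 2 standard errors, and 1 wild-type array reached the labelled ones for each gene. Atp5d, also of the central stalk, was 13.33, 13.26 and 13.27 in wild type against 13.45, 13.40 and 13.37, 0.12 (SE 0.08) higher with the groups apart, at an adjusted p of 0.462.

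The next 3 genes encode the same c subunit of the membrane ring and differ in their targeting peptides. Atp5g1 was 11.88, 11.72 and 11.69 in wild type against 12.22, 11.93 and 11.84, Atp5g2 was 12.61, 12.62 and 12.69 in wild type against 12.69, 12.74 and 12.73 and Atp5g3 was 11.32, 11.31 and 11.43 in wild type against 11.67, 11.31 and 11.47. Their changes were 0.23 (SE 0.12), 0.08 (SE 0.08) and 0.13 (SE 0.11). Atp5g1 and Atp5g3 followed the general pattern, highest in array 1, while Atp5g2 was highest in array 2.

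The peripheral stalk, which holds the head in place, had the highest median of the parts of complex V, 0.187 over 4 genes. Atp5pb, its subunit b, was 11.10, 10.66 and 11.26 in wild type against 11.52, 11.13 and 11.23, and Atp5h, its subunit d, was 10.93, 10.75 and 11.12 in wild type against 11.22, 10.95 and 11.20. Their changes were 0.29 (SE 0.16) and 0.19 (SE 0.12), with wild-type array 3 above array 2 for both. Atp5o, the OSCP subunit, was 10.59, 10.68 and 10.71 in wild type against 11.12, 10.71 and 10.70, highest in array 1. Atp5j was 11.53, 11.59 and 11.62 in wild type against 11.71, 11.63 and 11.69, with the groups just apart. The 5 small membrane subunits, Atp5j2, Atp5k, Atp5l, Atp5md and Atp5mpl, had a median change of 0.015, with medians of 0.336 in array 1, -0.099 in array 2 and -0.076 in array 3.

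Several members were read by more than 1 feature. These 16 genes, among them Atp5l with 6 features, may have near-identical copies or processed pseudogenes that the features can share, so their values are uncertain in level. The features of a gene had changes of the same sign for all 16, with a median spread of 0.043 and at most 0.15. The size of a change could thus depend on the feature. For Atp5pb the second feature changed by 0.15. Ndufc1 changed by 0.19 in the feature used (limma, unadjusted p 0.116). Its second feature changed by 0.28 (unadjusted p 0.00943, adjusted p 0.340), with all labelled arrays above all wild-type arrays. Cox7c and Ndufb4 occurred only on features shared with other symbols and were not analysed here.

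Of the subunits encoded in mitochondrial DNA, 2 had a feature that could be named. COX2 (mt-Co2), a core subunit of complex IV, was 13.35, 12.84 and 13.34 in wild type against 13.18, 13.32 and 13.23, and ND3 (mt-Nd3), of complex I, was 12.62, 12.24 and 12.71 in wild type against 12.59, 12.55 and 12.61. In both, wild-type array 2 was the lowest, and the labelled arrays lay within the wild-type range, with changes of 0.07 (SE 0.14) and 0.06 (SE 0.12). Array 1 labelled Lxn-/- was not the highest of the 6 for either gene. The nuclear subunit genes outside the symbol rule were Cyc1 and Ndufab1, the acyl carrier protein of complex I, which was 9.83, 9.56 and 9.87 in wild type against 10.24, 9.90 and 9.98. The changes of these 2 nuclear genes were 0.32 (SE 0.13) and 0.28 (SE 0.12), with an unadjusted p under 0.05 for both and adjusted p of 0.344 and 0.347.

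Genes that build complex I had higher medians in each labelled array. Of 16 complex I assembly genes, all 16 had higher means, against 42.2% of all features and 69.3% of those above the median level. Their median change was 0.191, and 7 (43.8%) had an unadjusted p under 0.05, against 5.06% and 8.37%. For 11 of them (68.8%) every labelled array lay above every wild-type array, against 8.54% and 15.8%. Their medians relative to wild type were 0.226, 0.134 and 0.170 in arrays 1, 2 and 3, where complex I subunits were at 0.300, 0.092 and 0.082. No test compared the 2 lists. Ndufaf1, an early assembly factor of the membrane arm, was 9.40, 9.41 and 9.40 in wild type against 9.72, 9.73 and 9.98, a change of 0.41 (SE 0.10). Ndufaf4 was 8.46, 8.36 and 8.38 in wild type against 8.996, 8.74 and 8.66, a change of 0.40 (SE 0.11), and Ndufaf2 was 7.53, 7.63 and 7.78 in wild type against 8.18, 7.90 and 7.93, a change of 0.36 (SE 0.11). All 3 had every labelled array above every wild-type array, and none passed (adjusted p 0.340 for each).

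**Figure D4:**
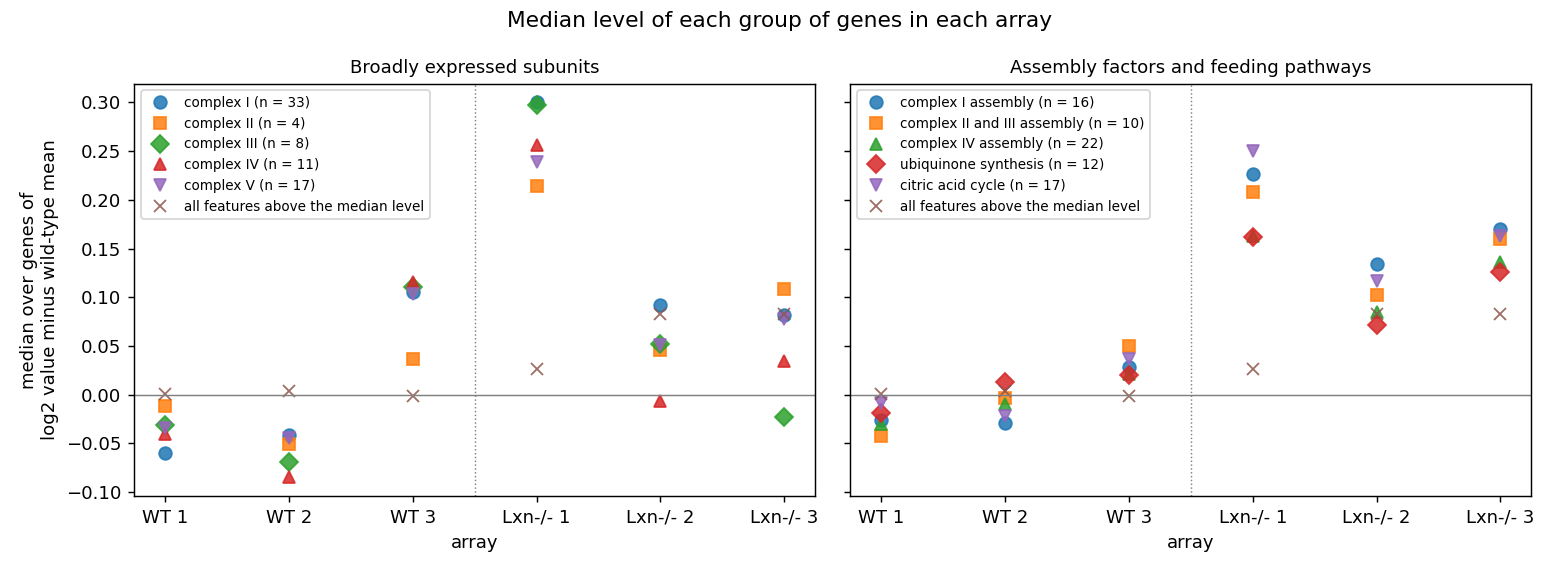
Points give the median over the genes of each group of the log2 value minus the wild-type mean, for each array, with all features above the median level as crosses. Subunits of the 5 complexes peak in array 1 labelled Lxn-/- at 0.214 to 0.300 and return to between -0.023 and 0.108 in arrays 2 and 3, where assembly factors of complex I are at 0.134 and 0.170.

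Assembly genes of the other complexes also had more higher than lower means, with 80%, 90.9% and 100% higher in the 3 lists below. The mean was higher for 42.2% of all features and 69.3% of those above the median level. Of 10 complex II and III assembly genes, 8 were higher at a median of 0.172, with medians of 0.208, 0.102 and 0.160 in arrays 1, 2 and 3. Sdhaf2, which attaches flavin to Sdha, was 9.18, 9.06 and 9.39 in wild type against 9.55, 9.47 and 9.43, and Bcs1l, which inserts the Rieske protein, was 10.14, 10.21 and 10.28 in wild type against 10.56, 10.41 and 10.34. Of 22 complex IV assembly genes, 20 were higher at a median of 0.146, with 0.163, 0.085 and 0.136 by array. Lrpprc, which stabilises mitochondrial mRNAs, was 9.80, 9.53 and 9.62 in wild type against 10.15, 9.94 and 9.88, and Cmc2 was 9.78, 9.51 and 9.73 in wild type against 9.98, 9.90 and 9.99. All 5 complex V assembly genes were higher at a median of 0.134, with 0.217, 0.188 and 0.093 by array, and Atpaf2, which assembles the F1 head, was 9.52, 9.32 and 9.42 in wild type against 9.80, 9.66 and 9.71. These 5 named genes had separate groups, with changes of 0.27 (SE 0.10), 0.23 (SE 0.09), 0.34 (SE 0.11), 0.28 (SE 0.10) and 0.30 (SE 0.09). They are the genes of the 3 lists with an unadjusted p under 0.05, which makes 20%, 9.09% and 20% of the lists, against 5.06% of all features and 8.37% of those above the median level. Groups were separate, with the labelled arrays higher, for 40%, 31.8% and 40% of the lists, against 8.54% of all features and 15.8% of those above the median level. None of the 5 named genes had an adjusted p under 0.340.

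Ubiquinone synthesis genes were higher in 11 of 12 cases (91.7%), against 42.2% of all features and 69.3% of those above the median level. Their median change was 0.097, with 0.162, 0.071 and 0.126 by array. Coq3 was 8.37, 8.25 and 8.53 in wild type against 8.68, 8.66 and 8.62, Coq5 was 10.03, 9.97 and 9.91 in wild type against 10.33, 10.23 and 10.10 and Pdss2 was 8.27, 8.18 and 8.26 in wild type against 8.39, 8.56 and 8.45. Their changes were 0.26 (SE 0.10), 0.25 (SE 0.09) and 0.23 (SE 0.09), and these 3 genes (25%) had an unadjusted p under 0.05, against 5.06% of all features and 8.37% of those above the median level. Among 12 genes listed as electron carriers and other feeders of the ubiquinone pool, 9 were higher (75%), against the same 42.2% and 69.3%. Their median change was 0.090, and 0 had an unadjusted p under 0.05. That list held Aox1, an aldehyde oxidase that does not feed the pool, and without it 9 of 11 were higher at a median of 0.093. Cycs, cytochrome c itself, was 12.18, 11.77 and 12.19 in wild type against 12.64, 12.29 and 12.10, again with the highest value in array 1, and its change was 0.30 (SE 0.16).

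In a list of the citric acid cycle, which supplies the electrons, 16 of 17 genes were higher at a median of 0.176. The mean was higher for 42.2% of all features and 69.3% of those above the median level. The list also holds pyruvate dehydrogenase genes (Pdha1, Pdhb, Dlat and Pdhx) and the pyruvate carboxylase gene Pcx, which are not part of the cycle itself. Pcx was the 1 lower gene, at -0.14. Medians by array over the 17 genes were 0.250, 0.117 and 0.163. An unadjusted p under 0.05 was found for 5 of the 17 (29.4%), against 5.06% and 8.37%. Dld, a subunit shared by several dehydrogenases, was 9.49, 9.22 and 9.51 in wild type against 9.76, 9.56 and 9.78, Pdhx was 8.07, 7.74 and 7.89 in wild type against 8.17, 8.10 and 8.21 and Sucla2 was 9.15, 9.10 and 9.38 in wild type against 9.45, 9.42 and 9.49. Their changes were 0.29 (SE 0.11), 0.26 (SE 0.10) and 0.24 (SE 0.10), with all labelled arrays above all wild-type arrays. That order held for 9 of the 17 genes (52.9%), against 8.54% of all features and 15.8% of those above the median level. Among 9 carriers and uncoupling proteins, 6 were higher (66.7%), against the same 42.2% and 69.3%. The 3 lower genes, Slc25a31, Ucp1 and Ucp3, had means inside the olfactory receptor range of 3.85 to 7.46 and cannot be told from background here. The median change of all 9 was 0.131, with 0.289, 0.083 and 0.051 by array. The outer-membrane channel gene Vdac2, the 1 gene of this list (11.1%) with an unadjusted p under 0.05, was 11.51, 11.15 and 11.64 in wild type against 11.73, 11.74 and 11.78, a change of 0.31 (SE 0.13).

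Regulators of respiratory genes and of mitochondrial DNA had a median change of 0.091, with 18 of 20 higher (90%), against 42.2% of all features and 69.3% of those above the median level, and medians of 0.081, 0.109 and 0.124 by array. An unadjusted p under 0.05 was found for 3 of them (15%), against 5.06% and 8.37%. Tfb2m, a mitochondrial transcription factor, was 9.74, 9.31 and 9.71 in wild type against 9.92, 9.92 and 9.95, and its relative Tfb1m was 9.70, 9.42 and 9.68 in wild type against 9.68, 10.02 and 9.96. Polg2, a subunit of the mitochondrial DNA polymerase, was 7.98, 8.00 and 7.81 in wild type against 8.15, 8.14 and 8.78, highest in array 3. The changes were 0.34 (SE 0.12), 0.29 (SE 0.12) and 0.43 (SE 0.17). Of the factors whose motifs were searched above, Nrf1 was 8.88, 8.81 and 8.82 in wild type against 8.93, 8.90 and 8.96, Gabpa was 9.99, 9.89 and 9.97 in wild type against 10.03, 10.02 and 10.07 and Yy1 was 11.50, 11.44 and 11.52 in wild type against 11.56, 11.53 and 11.45. Their changes of 0.09 (SE 0.08), 0.09 (SE 0.08) and 0.03 (SE 0.08) had adjusted p of 0.558, 0.573 and 0.884. Ppargc1a, the coactivator PGC-1alpha, was 7.42, 7.69 and 7.52 in wild type against 7.03, 7.60 and 7.12, lower in the 2 arrays with Y-linked signal than in the other 4, and its change was -0.29 (SE 0.15). Its mean over the 6 arrays lay inside the olfactory receptor range of 3.85 to 7.46, so Ppargc1a cannot be told from background here.

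Markers of other cells also differed in mean between the groups. Over all features 9.23% were lower and 5.06% higher at an unadjusted p under 0.05, and over those above the median level 3.02% and 8.37%. The mean was higher for 42.2% of all features and 69.3% of those above the median level, so lower means were more frequent among dim features. Erythroid markers had lower means in 8 of 9 genes at a median of -0.262. At an unadjusted p under 0.05, 2 of them were lower (Ermap and Gata1) and 1, the transferrin receptor gene Tfrc, was higher. Their summed linear value was 7533 to 10667 in wild type and 5622 to 8172 in the labelled arrays. All 6 megakaryocyte and platelet markers had lower means, 3 at an unadjusted p under 0.05 (median -0.318, summed value 1712 to 2196 against 1382 to 1626). Wild-type array 2 held the highest value of the 6 arrays for 7 of the 9 erythroid and all 6 megakaryocyte genes. Erythroid medians relative to the wild-type mean were -0.158, 0.274 and -0.134 in wild type against -0.328, -0.179 and -0.338. Those of the megakaryocyte genes were -0.069, 0.187 and -0.101 in wild type against -0.441, -0.291 and -0.277. Neutrophil and monocyte markers had higher means in 9 of 15 genes, 3 at an unadjusted p under 0.05, with a summed value of 31669 to 39392 against 33307 to 42529. Of 8 stroma and endothelium markers 2 had higher means, and 3 (Col1a1, Col1a2 and Cxcl12) were lower at an unadjusted p under 0.05. Of 6 B cell markers 2 had higher means, 1 of them at an unadjusted p under 0.05 (Blnk), and of 8 T and NK cell markers 4 had higher means and 1 was lower at that p (Ncr1). In the stroma, B cell and T and NK cell lists 4, 4 and 5 genes were at or below the upper bound of the olfactory receptor range. The part of these cells in the subunit values was not tested.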

How the data were processed

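The deposited table holds log2 values of 35557 features of Affymetrix MoGene 1.0 ST arrays, normalized by RMA with Partek 6.0 named beside it, per the submitters' processing notes. The log2 scale was inferred from the values (2.93 to 14.78 in tested features), and scan dates and RMA settings are not stated by the labels. RMA scales arrays to each other, so a change in total RNA per cell is not measured. The number of arrays limits the precision.

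Features were named through the platform's table: 21789 have 1 symbol, 1621 several and 12147 none. The 23410 with a symbol were tested with limma 3.58.1 in R 4.3.3 (lmFit, eBayes, two-sided, Benjamini-Hochberg over all of them, threshold 0.05), a fit checked on simulated data. All 81 members matched the GRCm38.p6 gene table. The members, lists and rules were chosen with earlier results of these data known. Every member may be named. Values by array are given for catalytic subunits, isoform pairs, X-linked members and the 3 smallest p per complex, and other members were described after their values were seen. Ly6a was not analysed here. Titles of the samples gave group and replicate number. Alternatives were each array left out, arrays 1 and 3 labelled Lxn-/- left out together, a replicate block, other scaling, filters, variance models and feature choices. The electron carrier list without Aox1 was added after seeing the data. Plots used matplotlib 3.10.9 (Python 3.11.15).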

Additional observations from a re-analysis of the deposited data

How the results depend on the processing

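Across 15 alternatives the median change over the 81 genes kept its sign, from 0.043 to 0.185, while that of complex IV ran from -0.007 with array 2 alone to 0.144 without wild-type array 3. The median over the 81 genes was 0.052 without array 1 labelled Lxn-/-. Members with an unadjusted p under 0.05 and a higher mean numbered 0 to 10 with 1 array left out (10 without wild-type array 3, 1 without wild-type array 1 or 2, 0 and 3 without arrays 1 and 3 labelled Lxn-/-), 0 with array 2 alone, 2 after quantile normalization, 3 with array weights and 11 after centring on the median, where 53.7% of all features were higher. Lower members numbered 0 to 1 with 1 array left out and 1 with array weights, and members with an adjusted p under 0.05 numbered 0 to 1. Quantile normalization gave complex II a median of 0.029 and Sdha a change of -0.036. With array 2 alone Cox4i2 was at -0.105, Cox6b2 at 0.176 and Uqcrq at -0.036. Array weights gave Cox4i2 -0.014 and Cox6b2 0.143, and centring gave Cox4i1 0.053 and Cox6b2 0.050. With 1 array left out Cox4i1 ranged from -0.146 to 0.102, Cox6b2 from -0.109 to 0.168 and Cox4i2 from -0.095 to 0.187. The lone array 2 was assumed to vary like wild type, and the cause of these differences was not tested. Between 64 and 81 members kept their sign. The replicate number as a block left 6 higher members at an unadjusted p under 0.05 and changed no call. Deviations of same-numbered arrays from their group means had correlations of 0.0757, -0.00763 and -0.00565. Those of the other array pairs ran from -0.0510 to 0.0518. With 3 arrays per group these values cannot settle whether the numbers mark pairs.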
